A study of Bos taurus with 2 samples.

Results

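The miR-2285 family is a large group of closely related microRNAs (miRNAs) first named in cattle, and it was followed here in small RNA libraries of collapsed and normal lungs of newborn cows. Its members were taken as every line of the deposited table whose name begins with bta-miR-2285 or bta-mir-2285. That rule found 87 of 2271 lines, with 66 names and 60 distinct sequences among 2085 distinct sequences in all, and the sequence was the unit counted. Reads of a sequence were summed over all its lines. The collapsed-lung library and the normal-lung library were each made from 1 pool of total RNA from lungs of 4 neonatal cows, listed as 500 ng per sample. The pools are described as coming from cloned and normal cows. The sample labels name the lungs as collapsed or normal, and reading the collapsed pool as that of the clones rests on the design text. The study examines miRNAs in a bovine model of neonatal respiratory distress that comes from cloning. With 1 pooled library per group, no difference given here has a replicate check, and cows of a pool cannot be told apart.

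MicroRNAs guide Argonaute proteins to messenger RNAs, and the bases from position 2 to position 8, the seed, choose most of the targets. A change of a single base in the seed, or a 5′ end moved by 1 base, therefore changes the set of possible targets. The miR-2285 genes lie at many places in the cattle genome, and their products differ from each other by a few bases. Shown here are the 12 sequences with most reads over both libraries and a second form of miR-2285m. The values of the family rest mainly on these. They are as deposited, 5′ to 3′ and in DNA letters, with the seed in capitals.
miR-2285f: aAAACCTGaatgaactttttgg
miR-2285k, 3 lines: aAAACCGGaatgaactttttgg
miR-2285k, 2 lines: aAAACCGGaatgaactttttgt
miR-2285e and miR-2285c: aAAACCTGaacaaactttttgg
miR-2285g: aAACCTGAacaagctttttggc
miR-2285o, 4 lines: aAACCCGAacgaacttttgggc
miR-2285o, 1 line: aAACCCGAacgaacttttgg
miR-2285u: aAACCCGAacgaacttt
miR-2285m, 1 base added at the 5′ end: aAAAACGCaaatgaactttttg
miR-2285m: aAAACGCAaatgaactttttgg
miR-2285p: aAAAACTTgagtgaacttttgg
miR-2285b: aAAATCTGagtgaactttttggt
miR-2285ad, miR-2285l and miR-2285n: aAAACCCGaatgaactttttg

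Most of these sequences end alike at the 3′ side and differ in and next to the seed. The 8 bases GAACTTTT, read on the given strand, stood in 20 of the 28 sequences with a mature name. They stood in 71 of the 2025 sequences outside the family, or 3.51%. Counting positions from 1 at the 5′ end, miR-2285f and the 3-line sequence of miR-2285k were separated by the single substitution T7G, which lies in the seed. The other sequence of miR-2285k differed from the 3-line one by G22T, at the last base. The shorter sequences of miR-2285o and miR-2285u, of 20 and 17 bases, were the first part of the 22-base miR-2285o and shared its seed. The 60 sequences held 41 distinct seeds, and 9 seeds were on more than 1 sequence. Members were rich in A and T, with a median of 67.4% A or T against 52.4% in sequences outside the family.

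The family was a minor part of both libraries, slightly smaller in collapsed lungs. Most of its reads were those of miR-2285f and the 22-base miR-2285o. The family took 1424 reads of 2822876 in the collapsed-lung library and 2729 reads of 4550911 in the normal-lung library. As a share of all reads in the table this was 0.0505% in collapsed lungs (exact binomial 95% interval 0.0479 to 0.0531%) and 0.0600% in normal lungs (0.0577 to 0.0623%). Scaled to reads per 1000000 table reads (RPM), the summed level was 505 RPM in the collapsed-lung library and 600 RPM in the normal-lung library. The ratio of collapsed to normal was 0.842, with an exact conditional binomial 95% interval of 0.788 to 0.897. All intervals and floors here describe counting error alone. No molecular identifiers mark the PCR copies, so reads are not independent molecules, and no interval holds the spread between cows. In tissue RNA, fewer cells of a type and less RNA per cell cannot be told apart.

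That lower sum came mainly from miR-2285f and miR-2285k. Without these, the remaining 57 sequences summed to 270 RPM in the collapsed-lung library and 277 RPM in the normal-lung library, a ratio of 0.975 (0.889 to 1.07). Without miR-2285f alone the ratio was 0.888 (0.816 to 0.967), and without miR-2285k alone 0.881 (0.823 to 0.942). The closely related bovine miR-2284 family, 43 sequences by name, summed to 856 RPM in the collapsed-lung and 1215 RPM in the normal-lung library, a ratio of 0.704 (0.671 to 0.739). Both families thus stood lower in the collapsed-lung library as sums, and 2 sequences carry names of both. No test between conditions can be made for either.

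**Figure D1:**
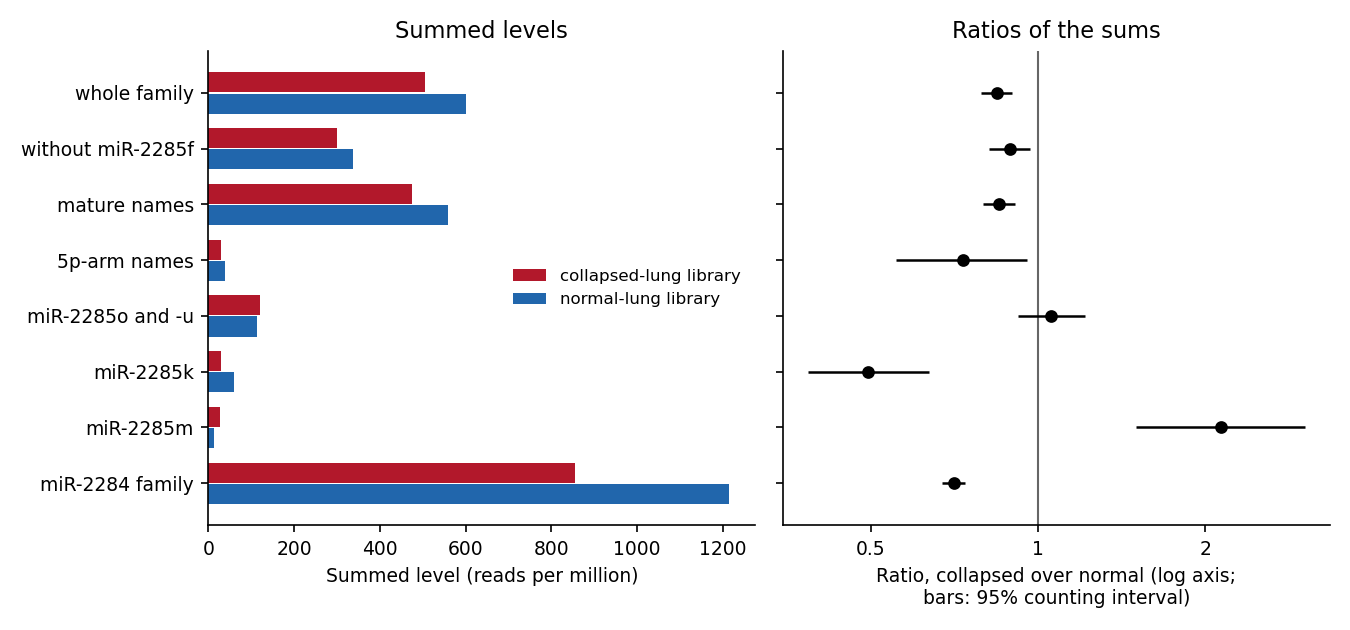
Summed levels in reads per 1000000 table reads (left, bars from 0) and ratios of collapsed over normal (right, log axis, bars are 95% counting intervals) for the miR-2285 family, subsets of it and the miR-2284 family, with 1 pooled library per group. The family ratio of 0.842 lies between 0.494 for miR-2285k and 2.13 for miR-2285m.

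Sequences with a mean of at least 10 RPM over both libraries were taken as measured, and 10 of the 60 members reached this, against 439 of 2025 other sequences. A call of higher or lower, always for collapsed lungs over normal lungs, needed a ratio of at least 2 or at most 0.5 and a counting interval that left out 1. Of the 10 measured members 1 was called higher, against 3.79% of all 449 measured sequences, and 2 were called lower, against a background of 3.34%. The 2 lower calls are the 2 sequences of miR-2285k, which have equal values per line and are 1 measurement, so that the counts over the family are too small to set beside these shares. The median log2 ratio of the 10 was -0.14, against 0.09 over all measured sequences and -0.26 over the 11 measured miR-2284 sequences. Without miR-2285k the median of the other 8 was 0.02. The counting interval lay below 1 for 4 of the 10 (25.8% of all measured sequences) and above 1 for 1 (35.9%).

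**Figure D2:**
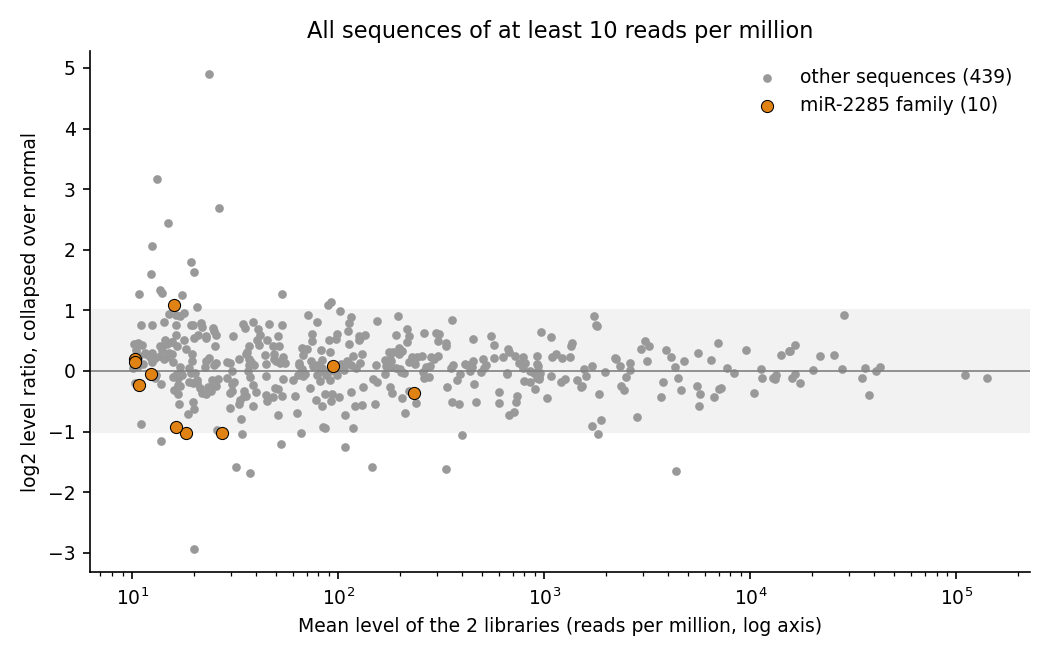
The log2 ratio of collapsed over normal against the mean level (log axis) for all 449 sequences of at least 10 RPM, with the 10 miR-2285 sequences as large points and ratios under 2-fold shaded. Members lie between log2 ratios of -1.02 and 1.09, and 9 of the 10 lie under 100 RPM.

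miR-2285f was the most abundant member. It had 578 reads, or 205 RPM, in the collapsed-lung library and 1192 reads, or 262 RPM, in the normal-lung library. Its 3 table lines made up 40.5% of family reads in collapsed lungs and 43.7% in normal lungs. The ratio was 0.781 (0.707 to 0.864), short of 2-fold, so it was lower in the collapsed-lung library beyond counting error and was not called. Its seed also stood on miR-2285e and miR-2285c, which share 1 sequence, and on miR-2285ac, and the 3 sequences summed to 216 RPM in the collapsed-lung and 274 RPM in the normal-lung library, a ratio of 0.788 (0.715 to 0.870). The sequence of miR-2285e and miR-2285c, with 28 reads in the collapsed-lung and 53 in the normal-lung library, was at 0.851 (0.519 to 1.37), not distinguishable from 1 at this depth. It also carries the name of a 3p arm of miR-2284e.

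The widest decrease among measured members was that of miR-2285k, which differs from miR-2285f by 1 base of the seed. Each of its 5 lines held 16.9 reads in the collapsed-lung and 55.2 reads in the normal-lung library. The levels of its 2 sequences thus differ only by their number of lines. The 3-line sequence stood at 18.0 RPM in collapsed lungs and 36.4 RPM in normal lungs, and the 2-line sequence at 11.99 RPM in collapsed lungs and 24.3 RPM in normal lungs. Over both sequences this was 30.0 RPM in collapsed lungs and 60.7 RPM in normal lungs, a ratio of 0.494 (0.385 to 0.635). The interval did not overlap that of miR-2285f. Both intervals take the lines as holding separate reads, which no source used here states. They would be wider if lines repeat the same reads. Of the reads of miR-2285k and miR-2285f together, miR-2285k took 12.8% in collapsed lungs (10.4 to 15.6%, exact binomial 95% interval) and 18.8% in normal lungs (16.8 to 20.9%). The call lay close to the 2-fold threshold and ended with 5 reads added to both libraries, at log2 ratios of -0.93 and -0.88. It also ended when each line was counted on its own, since the mean of a single line over both libraries lies under 10 RPM.

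miR-2285g, whose seed begins 1 base further along the same motif, was lower too. Its 3 lines summed to 31.7 reads, or 11.2 RPM, in the collapsed-lung library and 96.8 reads, or 21.3 RPM, in the normal-lung library, a ratio of 0.528 (0.345 to 0.800). It was not called when libraries were scaled to their totals. Under each of 3 other scalings it was called lower, at log2 ratios from -1.08 to -1.03. The library factors of these scalings lower a ratio of collapsed to normal by 0.11 to 0.16 on the log2 scale.

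**Figure D3:**
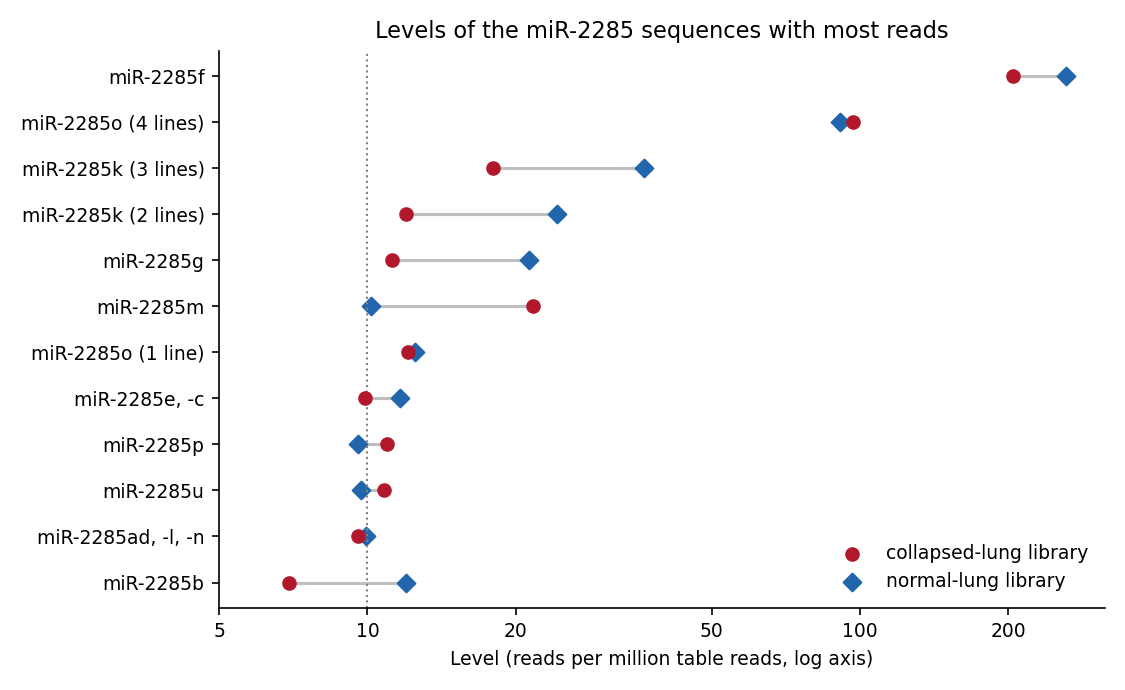
Levels of 12 miR-2285 sequences in reads per 1000000 table reads on a log axis, as circles for the collapsed-lung library and diamonds for the normal-lung library, with a dotted line at 10. miR-2285k and miR-2285g lie further left in collapsed lungs, miR-2285m further right, and the sequences of miR-2285o and miR-2285u nearly coincide.

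miR-2285m went the other way. The form with 1 base added at the 5′ end and 1 fewer at the 3′ end had 61.1 reads, or 21.6 RPM, in the collapsed-lung library and 46.3 reads, or 10.2 RPM, in the normal-lung library. The ratio was 2.13 (1.43 to 3.21), and it was the only measured member called higher. The form without that 5′ base, of the same length and with another seed, stood at 6.23 RPM in collapsed lungs and 2.90 RPM in normal lungs, under the minimum, with a ratio of 2.15 (1.03 to 4.96). Both forms thus had nearly the same ratio, and together it was 2.13 (1.498 to 3.02). Both forms have fractional reads in the deposited table, so their values may not be independent of each other. The call of the form with the added 5′ base ended under each of 3 other scalings, at log2 ratios of 0.93, 0.98 and 0.96 with median-of-ratios factors, a trimmed mean and the authors' normalized values. It also ended when each of its 3 lines was counted on its own.

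The miR-2285o and miR-2285u molecules, which share the second most abundant seed, were nearly level. The 22-base miR-2285o stood at 96.9 RPM in collapsed lungs and 91.2 RPM in normal lungs, a ratio of 1.06 (0.907 to 1.24). Its log2 ratio of 0.09 is the middle value of all 449 measured sequences, so the median over them is its own value. The 20-base form was at 0.965 (0.610 to 1.496), and the 17-base miR-2285u at 1.11 (0.667 to 1.79). Over the 3 forms the sums were 120 RPM in collapsed lungs and 113 RPM in normal lungs, a ratio of 1.06 (0.918 to 1.21). A 2-fold difference of this seed between the libraries lies outside that interval. The intervals of the 3 forms overlap.

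The remaining sequences with most reads had intervals that include 1. miR-2285p stood at 11.0 RPM in collapsed lungs and 9.56 RPM in normal lungs, a ratio of 1.15 (0.693 to 1.84). The sequence listed as miR-2285ad, miR-2285l and miR-2285n, on 8 lines, stood at 9.59 RPM in collapsed lungs and 9.92 RPM in normal lungs, a ratio of 0.967 (0.577 to 1.59). miR-2285b stood at 6.94 RPM in collapsed lungs and 11.95 RPM in normal lungs, a ratio of 0.581 (0.339 to 1.01). At these depths a ratio as far from 1 as that of miR-2285b could not be told from 1.

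**Figure D4:**
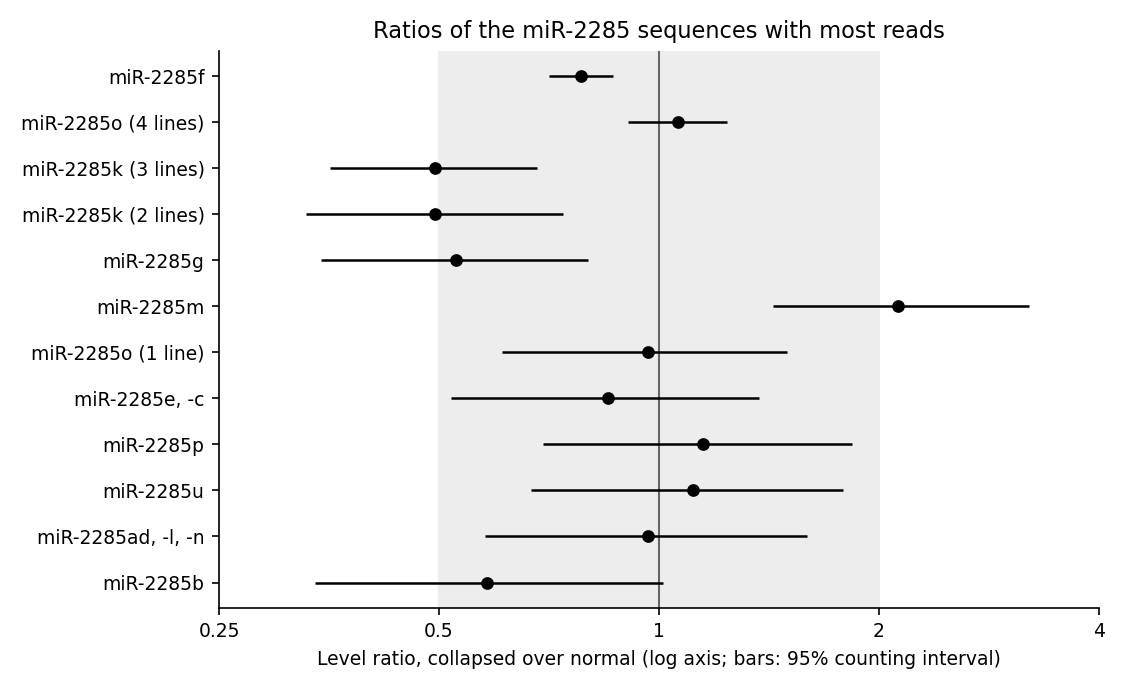
Ratios of collapsed over normal on a log axis for the same 12 sequences, with bars for exact 95% counting intervals, a line at 1 and the range under 2-fold shaded. The points of miR-2285k lie at 0.494 and that of miR-2285m at 2.13, both just outside the shading with bars that reach into it.

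Of the 50 members under 10 RPM, 45 had an interval that includes 1, and 32 of all 60 members stayed under 10 reads in each library. The 5 whose interval left out 1, chosen after their values were seen, were the second form of miR-2285m, miR-2285t, miR-2285j and the 5p arms of miR-2285ad and miR-2285q. Intervals that left out 1 were not counted over all sequences under 10 RPM. With no minimum, 5 of the 60 members were called higher and 3 lower, these 5 sequences among them. Over all 2085 sequences, 48 were then called higher and 29 lower. miR-2285t had 36.5 reads in collapsed lungs and 29.2 reads in normal lungs, a ratio of 2.01 (1.19 to 3.38) at a mean of 9.66 RPM, just under the minimum. miR-2285j had 6.28 reads in collapsed lungs and 25.9 in normal lungs, a ratio of 0.390 (0.125 to 0.924). The 5p arms of miR-2285ad and miR-2285q had 4 and 3.83 reads in collapsed lungs and 0 in normal lungs, where 0 reads allow a level of up to 0.659 RPM, the value of 3 reads. In all, 42 of the 60 members had reads in both libraries. A further 6 had reads in the collapsed-lung library alone, with at most 4 reads, and 12 in the normal-lung library alone, with at most 3 reads. Over all 2085 sequences, 1281 had reads in both libraries, 309 in the collapsed-lung library alone and 495 in the normal-lung library alone. The corresponding floor in the collapsed-lung library is 1.06 RPM. Together the 50 sequences summed to 96.5 RPM in collapsed lungs and 111 RPM in normal lungs, a ratio of 0.869 (0.747 to 1.01).

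A miRNA precursor is a hairpin with a 5p and a 3p arm, of which usually 1 arm accumulates. Names ending in p5, read here as the arm opposite to the mature miRNA, were on 29 of the 60 sequences, and names ending in p3 on 3. The p5 sequences summed to 29.1 RPM in the collapsed-lung library and 39.7 RPM in the normal-lung library, a ratio of 0.733 (0.556 to 0.953). Sequences with a mature name summed to 475 RPM in collapsed lungs and 558 RPM in normal lungs, a ratio of 0.851 (0.795 to 0.909), and the intervals of both classes overlap. No p5 sequence reached a mean of 10 RPM over both libraries. Of 21 letters of the family with both kinds of name, the mature arm was above the p5 arm in both libraries for 17. It was below it in both for 2, miR-2285h and miR-2285ac, chosen after their values were seen. The p5 sequence of miR-2285h also carries names of miR-2285g and miR-2285k, and its level holds the reads of all these lines. The line named for miR-2285h alone held 1.33 reads in collapsed lungs and 4.85 in normal lungs. The mature miR-2285h held more, 3 reads in collapsed lungs and 10.1 in normal lungs, so its order depends on the shared lines. Among the 17, the order of miR-2285e depends on shared lines too. Its main mature sequence also holds reads of lines named miR-2285c and miR-2284e. Mature lines named miR-2285e held 14.0 and 2.75 reads in collapsed lungs, and 34.95 and 5.25 in normal lungs. Its most abundant p5 sequence held 17.5 reads in collapsed lungs and 48.5 in normal lungs. Counted by these lines alone, the mature arm of miR-2285e was below its p5 arm in both libraries. For miR-2285ac the p5 arm stood at 2.48 RPM in collapsed lungs and 2.67 RPM in normal lungs, and the mature arm at 1.42 RPM in collapsed lungs and 0.439 RPM in normal lungs. All of these levels rest on few reads. Sequences with a p3 name had 2 reads in collapsed lungs and 8 reads in normal lungs in all.

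The arms of a precursor are in part the reverse complement of each other. The letter q is shown, chosen because no pair had a longer stretch that is complementary between the arms. That stretch is in capitals.
mir-2285q-p5: aaAAAGTTCATTCAGGTtttct
miR-2285q: aaggACCTGAATGAACTTTct
The stretch is 15 bases long. Over 45 pairs of a p5 and a mature sequence with the same letter the median stretch was 8 bases, with a range of 5 to 15. The 8 bases AAAAGTTC, the reverse complement of GAACTTTT, stood in 14 of the 29 p5 sequences and in none of the 28 mature ones. Outside the family they stood in 21 sequences, or 1.04%. Among the 43 sequences with a miR-2284 name, 2 of them also members, they stood in 16, or 37.2%, and GAACTTTT in 7, or 16.3%.

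The p5 arms also shared seeds with the miR-2284 family. Seeds were compared with the 41 sequences named miR-2284 that are not also members. The seed of 16 of the 29 p5 sequences was among theirs, as was the seed of 2 of the 28 mature ones. The seed of miR-2285f is not counted there. It stands on a miR-2284 name only through the sequence that miR-2285e and miR-2285c share with a 3p arm of miR-2284e. Sequences with 1 of the seeds shared by p5 sequences are shown, again with the seed in capitals.
mir-2284y-1-p5: aAAAGTTCgttcgggtttttc
mir-2285t-p5: aAAAGTTCgttcaggtttttct
mir-2285b-2-p5: aAAAGTTCatttgggcttttct
Their shared seed stood on 7 p5 sequences of the family, which summed to 10.3 RPM in the collapsed-lung library and 12.3 RPM in the normal-lung library, a ratio of 0.837 (0.514 to 1.33).

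Other shared seeds gave sums that were small in both libraries. The seed of miR-2285g also stood on a form of miR-2285e, and both summed to 12.2 RPM in collapsed lungs and 22.4 RPM in normal lungs, 1.84-fold lower (1.25 to 2.83), most of it miR-2285g itself. The seed of the sequence of miR-2285ad, miR-2285l and miR-2285n was also that of a further form of miR-2285n, and together these stood at 14.4 RPM in collapsed lungs and 14.9 RPM in normal lungs. The most abundant p5 sequence, that of miR-2285e, chosen after its values were seen, stood at 6.21 RPM in collapsed lungs and 10.7 RPM in normal lungs, a ratio of 0.583 (0.331 to 1.06). With the 5p arm of miR-2285aa, which has the same seed, the sum was 1.59-fold lower in collapsed lungs (1.02 to 2.45).

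The lines with a mature name were set beside the genes listed for each letter. RefSeq, in its assembly ARS-UCD2.0, which is not the build of the deposited data, lists 148 MIR2285 genes with 110 letters. All 29 letters of the table were among them, with 54 genes. For 25 of 26 letters with a mature name, the lines with such a name were as many as the RefSeq genes. This held for 8 of 9 letters with several genes, among them 5 for miR-2285k, 5 for miR-2285m, 5 for miR-2285o and 7 for miR-2285n. Taken by full name, which also marks forms with changed ends, the lines were as many as the genes for 21 of 30 names, and for 4 of the 9 names on more than 1 line. In the count by letter, the exception was miR-2285f, with 3 lines and 2 genes. Of the 54 genes 39, or 72.2%, lay within the span of a protein-coding gene, against 65.2% of the 884 other RefSeq miRNA genes, with the strand not considered. Among them were MIR2285F-1 in the span of TBK1, a kinase of innate immune signalling, MIR2285K-1 in DLG2 and MIR2285M-1 in PLCB1. Next to another gene of the miR-2284 or miR-2285 families stood 9 of the 54.

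Fractional reads were more frequent in the family than outside it. Reads were not whole numbers, within 0.005, in 40 of the 60 sequences, or 66.7%, against 10.4% of sequences outside the family. No source used here says how the authors divided reads between members, and the level of a single member depends on that division. Outside the miR-2284 and miR-2285 names, 64 sequences held a seed of the family, 62 of them predicted miRNAs, and they were scarce, with at most 16.5 reads in the collapsed-lung and 27 in the normal-lung library. They summed to 39.7 RPM in collapsed lungs and 56.9 RPM in normal lungs, a ratio of 0.698 (0.553 to 0.873).

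As different between the libraries the authors' deposited table set apart 78 of all 2271 lines. Of the 87 family lines 6, under 2 names, were among these. They were the 5 lines of miR-2285k, at a fold change of collapsed over normal of 0.452 in the authors' deposited table, and the 5p arm of miR-2285p, at 0.147 in the authors' deposited table. The arm of miR-2285p had 1 read in collapsed lungs and 10 reads in normal lungs, and the interval of its ratio of 0.161, from 0.00371 to 1.13, includes 1. In 11 lines of the family, of 6 names, the authors' normalized values were not the line's own reads over the library's factor within 2%. All 11 had a sequence that also stood under another name.

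Sequences outside the family were also grouped by base composition and by abundance. Among them the 114 measured ones with at least 60% A or T had a median log2 ratio of 0.07, and the 325 others 0.10. The 220 other sequences of 10 to 100 RPM had a median of 0.14. The 10 measured members, of which 6 had at least 60% A or T, had the median of -0.14 given above. That median holds both sequences of miR-2285k, and without them it was 0.02 over 8 members. Whether base composition or abundance bears on the ratios was not tested.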

How the data were processed

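Small RNA of 1 pooled collapsed-lung and 1 pooled normal-lung library was made, per the labels' protocols, from Trizol-extracted RNA with a TruSeq small RNA kit. Per the file headers, the authors deposited raw read counts per miRNA name and sequence, which are not all whole, and a normalized signal, raw reads over 0.823 in the collapsed-lung and 1.21 in the normal-lung library except in lines such as 11 of the family. They also deposited the ratio (fold change), its log2 value and p-values of the authors on the reads of the 2 libraries, per the file headers, which are not used as evidence. Per the submitters' processing notes the build was bosTau8, with aligner and miRNA database not given in the sources used here. Of the table, 2 emptied lines were not analysed here.

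Reads were summed per distinct sequence and scaled to reads per 1000000 (RPM) of the library's 2822876 (collapsed) or 4550911 (normal) table reads. Ratios have exact conditional binomial 95% intervals on rounded reads, with the lines of a sequence taken to hold separate reads. A floor is 3 reads. Where 1 library had no reads, 0.5 read was added to both. Conditions were not tested against each other, because 1 library per group gives no estimate of spread. The script was tested on simulated data. Named sequences are those of at least 10 RPM, the 12 with most reads, those called, and those shared with another name at 10 reads or more. Members and lists were chosen with earlier results of these data known. Alternatives were 3 other scalings, 3 ways of combining lines, a pseudocount of 5 reads, other minimums and a ratio of 1.5. Python 3.11.15, pandas 2.3.3 and scipy 1.17.1 were used.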

Additional observations from a re-analysis of the deposited data

How the results depend on the processing

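No paired analysis was possible because each condition is 1 pool. The 1 higher call of the family, that of miR-2285m, became 0 with median-of-ratios factors, a trimmed mean, the authors' normalized values, each line or the fullest line of a sequence, and a minimum of 50 RPM. It became 3 with a minimum of 3 RPM and 5 with none. The 2 lower calls became 0 with each line, the fullest line, a pseudocount of 5 reads and a minimum of 50 RPM. Both are of miR-2285k, so leaving it out, an alternative added after seeing the data, gives 0 by construction. The lower calls became 3 under the 3 other scalings, a ratio of 1.5, a minimum of 3 RPM and no minimum. The log2 ratio of the summed family, -0.25, was -0.36 with a trimmed mean, -0.37 with the authors' normalized values and -0.40 with median-of-ratios factors. That of the seed of miR-2285f, -0.34, was -0.50 with median-of-ratios factors and -0.50 with the authors' normalized values. The library factors of these 3 scalings lower a log2 ratio by 0.11 to 0.16, and the authors' normalized values did not move all sequences alike. Of 84 values of single named sequences under alternatives, 69 stayed on their side of the threshold and within their interval, 11 lost and 3 gained a call, and 1 moved outside its interval, miR-2285f at a log2 ratio of -0.51 with median-of-ratios factors. None of the called ones changed sign. Depth limits the family: the median half-width of the interval over measured members was 0.60 on the log2 scale.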
